A study of Arabidopsis thaliana with 48 samples.

Results

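Leaves of the Arabidopsis thaliana wild type Col-0 (Col) after 8 min in high light were set against Col leaves at 0 min, 3 libraries each. Both groups were local leaves, the leaves that stood in the high light. Genes were taken by 1 rule, a mean normalised read count of at least 10 over all 48 libraries of the study, which 19556 of 32833 listed genes met. The last gene inside the limit was AT4G05540 with a mean of 10.0, and the first outside it was AT4G06265 with 9.99. RNA was sequenced in 16 groups of 3 libraries, with 2 genotypes, 2 leaf positions and 4 times of high light.

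The groups used besides these were Col systemic leaves at 8 min and at 0 min, which belonged to the same kind of plants but stood outside the high light, and local leaves of the myb30 knockout at 8 min and at 0 min. Levels in Col local leaves at 2 min and 30 min are given beside them. The 6 Col libraries titled 30 min carry 0 min as their time in another label field, and they were taken as 30 min from the titles, so that labels conflict for every Col value given at 30 min. MYB30 is an R2R3-MYB transcription factor, and the allele is not given in the sources used here. All plants were 4 weeks old and had grown on soil with 10 h of light and 14 h of dark at 21 to 24 °C. The design text gives 20 plants for the repeats of a genotype and time without saying whether each library held that many. No label says that the repeats were sown or lit on separate days, so p-values measure the spread between these libraries, which may be technical. The light intensity is not given in the sources used here.

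Leaves placed in strong light receive more energy than photosynthesis can use, and they warm. Reactive oxygen species form in the chloroplast, calcium and stress hormones rise, and heat shock factors bind heat shock elements, inverted repeats of GAA, in the promoters of chaperone genes. Small heat shock proteins hold unfolding proteins, HSP101 pulls aggregates apart, and HSP70 and HSP90 refold their clients.

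The promoters of 5 genes that rose are shown first, since the motifs in them are counted over all genes in the section on promoters. Each run holds the 250 bases before the annotated start, read 5′ to 3′ on the gene's own strand from RefSeq TAIR10.1. In the first 4, capitals mark matches to the 3-unit heat shock element, GAANNTTC followed by NNGAA, on either strand, which overlap where 2 lie together. In CBF2, capitals mark the rapid stress response element CGCGTT and the evening element AAATATCT.
AT1G71000 (DnaJ-domain protein, minus strand, chr1:26770178-26770427): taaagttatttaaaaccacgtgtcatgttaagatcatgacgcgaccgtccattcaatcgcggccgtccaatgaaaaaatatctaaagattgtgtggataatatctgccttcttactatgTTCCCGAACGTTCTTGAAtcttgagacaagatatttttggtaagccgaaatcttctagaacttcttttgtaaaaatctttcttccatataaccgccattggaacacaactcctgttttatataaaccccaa
AT1G53540 (HSP20-like chaperone, plus strand, chr1:19980049-19980298): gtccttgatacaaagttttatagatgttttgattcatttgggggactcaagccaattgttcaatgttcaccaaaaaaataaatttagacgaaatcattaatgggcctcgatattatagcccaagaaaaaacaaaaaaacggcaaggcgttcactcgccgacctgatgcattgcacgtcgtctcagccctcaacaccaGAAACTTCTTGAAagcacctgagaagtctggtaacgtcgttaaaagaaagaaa
HSP17.4 (minus strand, chr3:16984868-16985117): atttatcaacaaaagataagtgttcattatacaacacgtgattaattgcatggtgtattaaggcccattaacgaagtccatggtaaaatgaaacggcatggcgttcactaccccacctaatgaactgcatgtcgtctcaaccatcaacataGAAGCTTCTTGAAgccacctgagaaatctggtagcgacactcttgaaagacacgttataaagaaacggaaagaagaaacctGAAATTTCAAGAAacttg
DREB2A (plus strand, chr5:1601955-1602204): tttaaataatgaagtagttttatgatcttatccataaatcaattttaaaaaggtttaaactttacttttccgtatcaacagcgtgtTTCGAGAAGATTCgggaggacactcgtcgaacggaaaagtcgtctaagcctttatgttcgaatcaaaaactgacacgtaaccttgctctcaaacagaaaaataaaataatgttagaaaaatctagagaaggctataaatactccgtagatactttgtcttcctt
CBF2 (minus strand, chr4:13016236-13016485): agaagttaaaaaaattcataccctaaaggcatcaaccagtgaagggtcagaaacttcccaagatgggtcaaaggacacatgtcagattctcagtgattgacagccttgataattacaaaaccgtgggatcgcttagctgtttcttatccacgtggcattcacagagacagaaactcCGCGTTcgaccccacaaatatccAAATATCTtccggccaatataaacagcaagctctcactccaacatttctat

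The 6 libraries compared held 72164973 to 78632960 reads counted in genes. Levels below are normalised read counts, reads divided by 1 size factor per library, and they are not divided by transcript length. Changes are log2 fold changes of 8 min over 0 min with their standard error, on log2 of the normalised count plus 1, and adjusted p-values are from limma over all 19556 genes. Of the 0 min libraries, replicate 3 stood apart in stress genes: WRKY40, a stress-induced transcription factor, was at 4205, 2844 and 2402 in the 8 min libraries, against 38.3, 38.0 and 1897 in the 0 min libraries. Of the 8 min libraries, replicate 3 lay farthest from the other 2 (chi-square per gene 60.02 and 65.2, against 22.5 between replicates 1 and 2). Systemic 0 min leaves held 2 libraries that went against their labels: of 8 genes that parted the genotypes elsewhere, 100% lay nearer the other genotype in Col replicate 3 and in myb30 replicate 3. The root, flower and pollen markers, 6 genes, summed to 66.8 to 138 at 8 min and to 63.2 to 144 at 0 min. Most of each sum came from the flower gene AG, with means of 97.2 at 8 min and 101 at 0 min. RHD6 and AT5G45880 were at 0 in all 3 libraries at 8 min, and RHD6 and PHT1;2 were at 0 min.

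In Col local leaves 2603 genes rose and 2476 fell by 8 min, which was 13.3% and 12.7% of the genes tested and 26.0% together. Counts of list members below stand beside these shares. The highest changes were far larger than the lowest ones. Of the genes that rose, 577 rose at least 2-fold, 231 at least 4-fold, 68 at least 16-fold and 23 at least 64-fold. Of the genes that fell, 226 fell at least 2-fold, 19 at least 4-fold and 1 at least 16-fold. The median change was 0.43 among genes that rose, -0.42 among genes that fell and 0.0032 over all genes. The libraries of the 2 groups did not overlap for 7605 genes (38.9%), 3791 that were higher at 8 min (19.4%) and 3814 that were lower (19.5%). Without 8 min replicate 3, 3056 genes were called in place of 5079. Scaling to the same total moved the median of all genes to -0.11 and the calls to 1393 higher and 4845 lower, and quantile normalization gave 1900 higher and 3450 lower, so small changes below are relative to the authors' scaling.

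**Figure D1:**
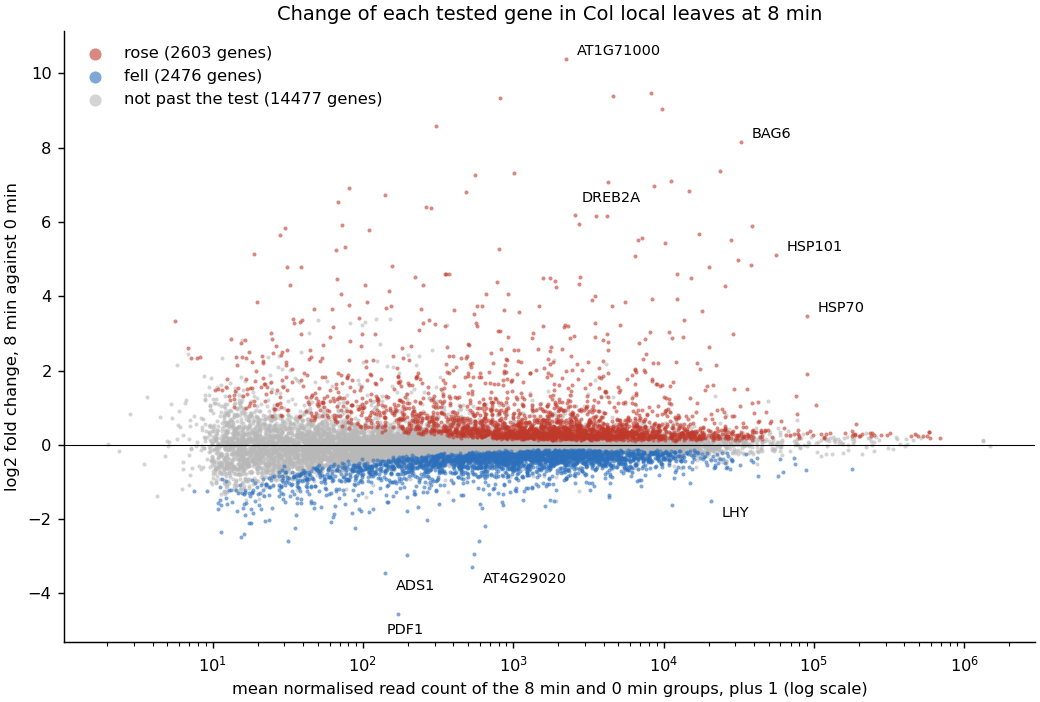
Log2 fold change of each of the 19556 tested genes in Col local leaves (8 min over 0 min, vertical axis) against its mean normalised read count plus 1 over both groups (horizontal log axis); red points are the 2603 genes that rose, blue points the 2476 that fell and grey points those that did not pass the test (limma, adjusted p under 0.05). The chaperone genes AT1G71000, BAG6, HSP101 and HSP70 stand above the cloud at all levels, and PDF1 at -4.56 is the lowest point.

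Small heat shock proteins were 9 of the 12 genes with the highest changes. Of the 10 tested members of the list named cytosolic small heat shock proteins, 9 rose and none fell, with a median change of 7.09. Where each member acts in the cell was not checked. All 5 members of the chloroplast, mitochondrial and endoplasmic reticulum list rose, by 5.56 to 9.39 with a median of 8.59. AT1G53540, an HSP20-like chaperone, had 15459.8, 15993 and 18348 normalised counts in the 8 min libraries, against 28.2, 30.6 and 12.6 in the 0 min libraries, a change of 9.47 ± 0.89 (adjusted p = 2.57e-10). HSP17.6A, a cytosolic small heat shock protein, had 18689, 19277 and 20497 at 8 min, against 55.5, 32.7 and 26.3 at 0 min (9.03 ± 0.75, adjusted p = 8.43e-12). Both genes were low in all 3 libraries at 0 min and high in all 3 at 8 min. HSP23.6, which acts in mitochondria, had 8444, 8970.1 and 10219 at 8 min, against 12.1, 19.0 and 8.75 at 0 min (9.39 ± 0.78, adjusted p = 8.64e-12). HSP22.0, an HSP20-like chaperone, had 1488, 1523 and 1849.9 at 8 min, against 0, 4.22 and 1.95 at 0 min (9.34 ± 1.03, adjusted p = 1.08e-08). The chloroplast protein HSP21 had 599.6, 548 and 685 at 8 min, against 1.01, 0 and 0.973 at 0 min, where the 3 libraries held 2 reads in all, too few for a fold, and the list's median is this gene's fitted value, which depends on the pseudocount of 1.

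The other small heat shock proteins named by rank were AT1G59860 (42105, 48652 and 49981 at 8 min, against 262, 376 and 231 at 0 min), AT1G07400 (21234, 21873 and 23868, against 149, 219.6 and 128) and AT5G37670 (8198, 9014 and 8274, against 54.5, 72.8 and 58.4). Their changes were 7.36 ± 0.37, 7.10 ± 0.58 and 7.09 ± 0.23, with adjusted p-values of 7.19e-18, 7.45e-12 and 1.57e-23. In HSP17.4 the 0 min libraries were uneven, 1943, 1898 and 2202 at 8 min against 29.2, 7.39 and 6.81 at 0 min (7.32 ± 0.74, adjusted p = 1.88e-09). The rule that named it by rank required groups that do not overlap. AT2G29500 and AT1G54050 rose by 6.83 ± 0.37 and 5.51 ± 0.30, and in the organelle list AT1G52560 and AT5G51440 rose by 6.80 ± 0.46 and 5.56 ± 0.29. The member that did not pass was AT4G21870, an HSP20-like gene with a change of -0.21. Several of these genes are close relatives, and how the authors' counting split reads between them is not given in the sources used here.

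**Figure D2:**
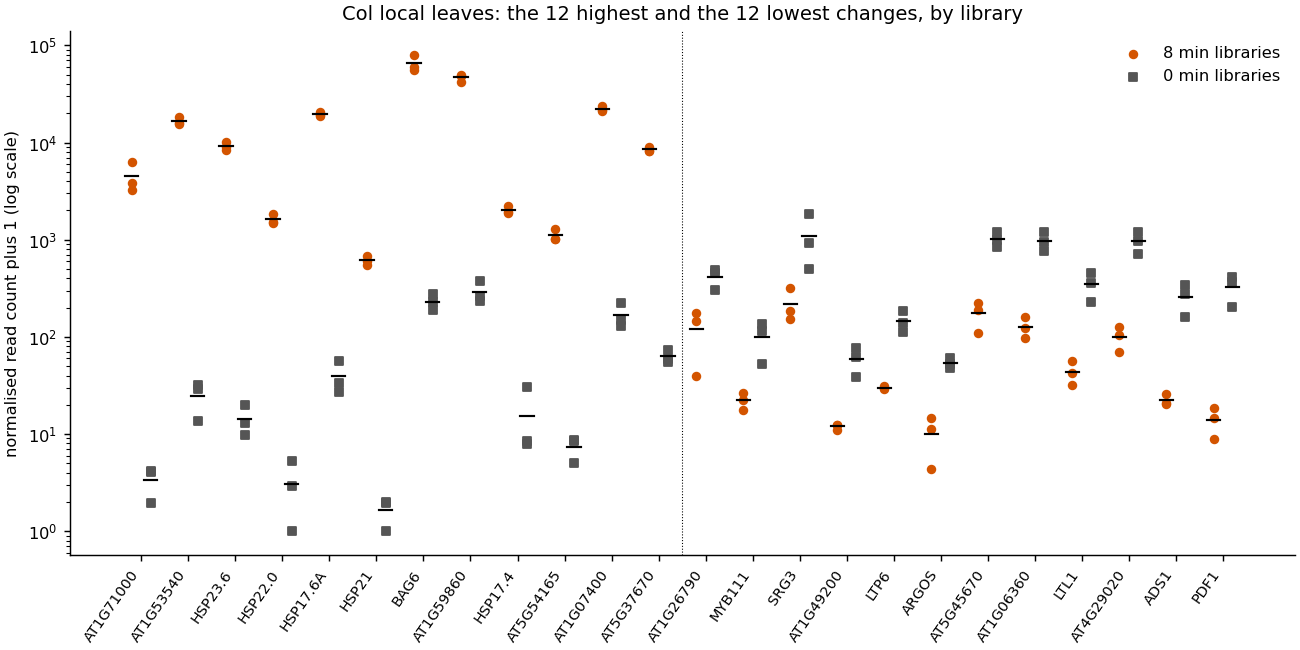
Normalised read count plus 1 (vertical log axis) in each Col local library for the 12 genes with the highest and the 12 with the lowest changes; orange circles are the 3 libraries at 8 min, grey squares the 3 at 0 min and black bars the group means. The rule that picked the 24 genes required groups that do not overlap, as 38.9% of all tested genes have. The gap is widest for AT1G71000, at 3268 to 6353 against 0.973 to 3.17.

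The gene with the highest change was AT1G71000, which codes for a protein with a DnaJ domain, the part of co-chaperones that activates HSP70. It had 3268, 3821 and 6353 normalised counts at 8 min, against 3.03, 3.17 and 0.973 at 0 min (10.39 ± 0.78, adjusted p = 6.78e-13). BAG6, a calmodulin-binding co-chaperone, had 56337, 60544 and 79529.9 at 8 min, against 187, 226 and 276 at 0 min (8.15 ± 0.21, adjusted p = 3.4e-26). BAG6 was already well counted at 0 min and AT1G71000 hardly at all, and the standard error was smaller for BAG6. Over all 111 tested genes annotated as DnaJ-domain proteins, 16 rose (14.4%) and 11 fell (9.91%), near the 13.3% and 12.7% of all tested genes. Their median was 0.033 (-0.013 with quantile normalization and -0.085 with totals made equal). AT5G54165, annotated as an Avr9/Cf-9 rapidly elicited protein, also ranked among the 12 highest, with 1019, 1017 and 1289.7 at 8 min, against 4.03, 7.39 and 7.78 at 0 min (7.26 ± 0.58, adjusted p = 4.36e-12).

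Of 24 chaperones and co-chaperones of the HSP70, HSP90 and HSP100 families, 18 rose and none fell, with a median of 1.47. HSP101, the disaggregase needed for acquired heat tolerance, had 100356, 108485 and 115245 normalised counts at 8 min, against 2547, 4400.3 and 2667 at 0 min (5.12 ± 0.37, adjusted p = 2.49e-13). HSP70, a stress-induced cytosolic chaperone, had the largest gain in normalised counts among called genes whose groups did not overlap. It had 149116, 174525 and 171772 at 8 min, against 17191, 19915 and 9409 at 0 min (3.48 ± 0.39, adjusted p = 2.21e-08). HSP90.2, a cytosolic HSP90, had 129980.0, 151681 and 142433 at 8 min, against 39191, 49757 and 27276 at 0 min (1.91 ± 0.26, adjusted p = 1.11e-06). In each of the 3 genes the lowest 8 min library stood more than 2-fold above the highest 0 min library. HSP70B rose by 5.08 ± 0.18, the mitochondrial chaperone mtHSC70-2 by 2.99 ± 0.16 and HOP3, a co-chaperone that links HSP70 to HSP90, by 4.99 ± 0.30. Members that did not pass were the constitutive cytosolic HSC70-1 (0.32), HOP1 (0.14), mtHSC70-1 (0.11), the chloroplast cpHSC70-2 (0.34) and the organelle forms HSP90.5 (0.45) and HSP90.6 (0.42).

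Transcription factors of the heat response were also among the genes that rose. Of 21 heat shock factors and heat regulators tested, 14 rose and 2 fell, with a median of 1.94. DREB2A, a drought and heat factor, had 5576, 6148 and 9322 normalised counts at 8 min, against 75.6, 105 and 109 at 0 min (6.15 ± 0.27, adjusted p = 2.49e-19). HSFA7A, a heat-induced activator, had 7782, 8042 and 8933 at 8 min, against 82.7, 173 and 101 at 0 min (6.17 ± 0.41, adjusted p = 2.17e-14). HSFA2, the activator that sustains heat tolerance and a gene picked after its values were seen, had 70549, 76416 and 81999 at 8 min, against 778, 2421 and 1095 at 0 min (5.90 ± 0.59, adjusted p = 1.02e-09). The class B factor HSFB1, known as a repressor in recovery from heat, rose by 2.75 ± 0.19 and the coactivator MBF1C by 4.48 ± 0.32. The factors that start the response in the textbook scheme, HSFA1A, HSFA1B, HSFA1D and HSFA1E, were at -0.25, 0.70, -0.053 and 0.043, and of these HSFA1B rose and HSFA1A fell. The 2 members that fell, HSFA1A and HSFA6A (-1.26), were 0 without 0 min replicate 2 and 1 without 0 min replicate 1 or without any 1 of the 8 min libraries.

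The 65 genes of the heat lists took a larger share of all reads at 8 min. It was 2.23%, 2.43% and 2.46% in the 8 min libraries, against 0.820%, 0.889% and 0.635% in the 0 min libraries. In Col local leaves at 2 min it was 0.546% to 0.720%, and at 30 min 8.24% to 8.90%. The cytosolic small heat shock list alone took a mean of 0.00668% at 2 min and 0.00333% at 0 min, and 2 of its members were called higher at 2 min. HSP101 averaged 3205 ± 1037, 1602 ± 551, 108029 ± 7455 and 587788 ± 63849 normalised counts at 0, 2, 8 and 30 min (SD, n = 3). BAG6 averaged 229.6 ± 44.9, 317 ± 67.0, 65470.1 ± 12356 and 252585 ± 24492. DREB2A was nearer its 30 min level by 8 min, at 96.4 ± 18.1, 135 ± 25.9, 7015 ± 2018 and 11599.7 ± 1729. The 2 min means were thus below the 0 min means in HSP101 and above them in BAG6 and DREB2A. These times share the 0 min libraries with the comparison described here.

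**Figure D3:**
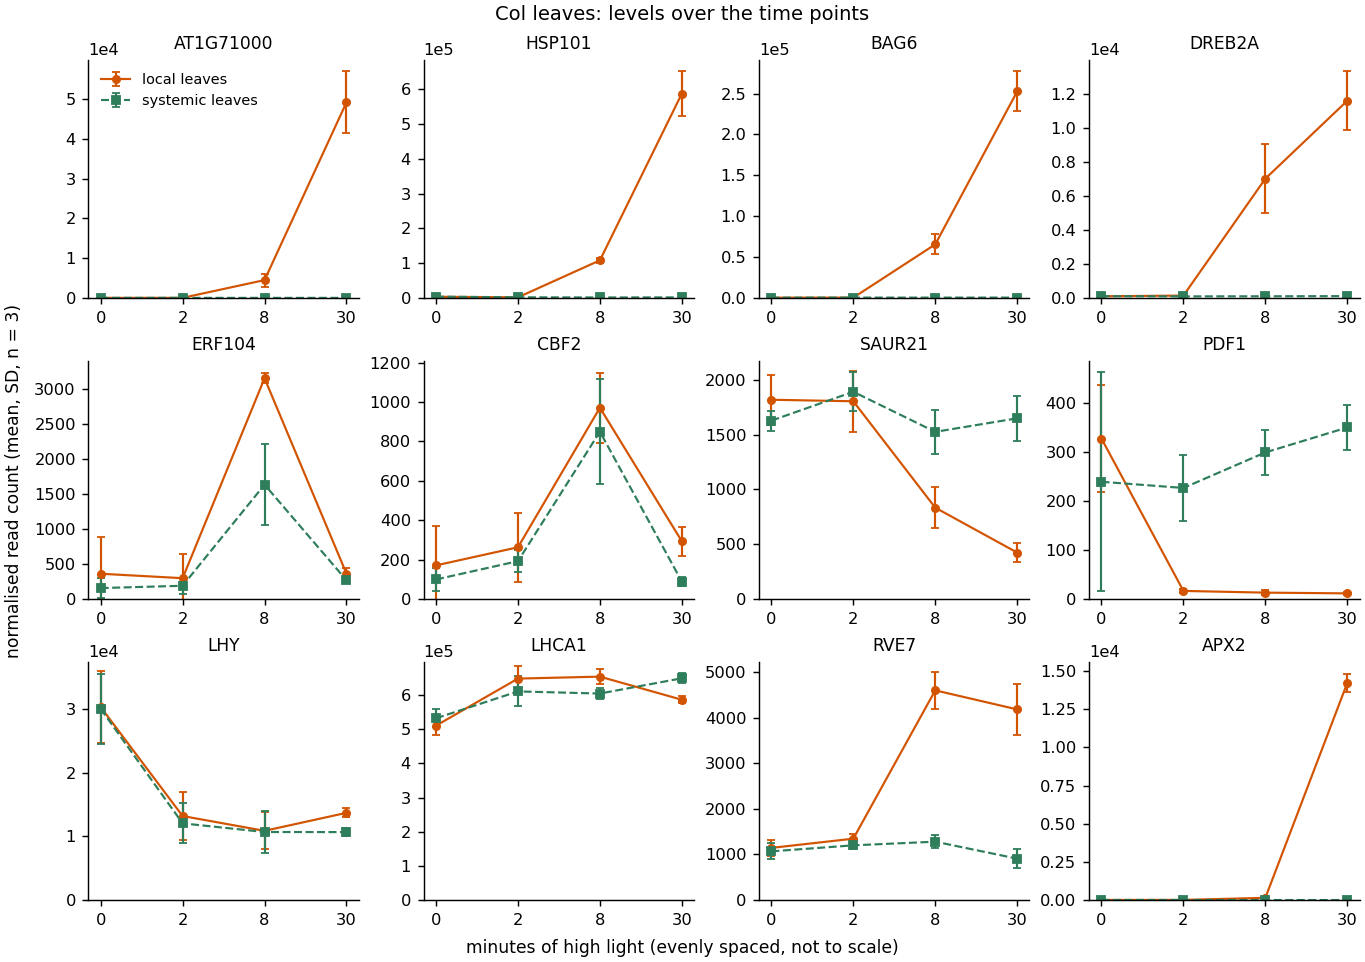
Normalised read count (vertical axes, mean with SD bars, n = 3 libraries) at 0, 2, 8 and 30 min of high light (horizontal axes, evenly spaced) in Col local leaves (orange circles, solid lines) and Col systemic leaves (green squares, dashed lines) for 12 named genes. HSP101, BAG6 and DREB2A climb in local leaves after 2 min, ERF104 and CBF2 peak at 8 min in both leaves, PDF1 is low in local leaves at 2, 8 and 30 min, and LHY is lower at 2, 8 and 30 min in both leaves.

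The protein folding genes of the endoplasmic reticulum moved less. Of 26 tested, 5 rose and 1 fell, with a median of 0.30. ERDJ3A, a DnaJ protein of the endoplasmic reticulum, had 5149, 5426 and 5376 normalised counts at 8 min, against 201, 282 and 218 at 0 min (4.52 ± 0.18, adjusted p = 1.42e-20). BI1, an inhibitor of cell death in that membrane, rose by 1.4 ± 0.13, and the membrane-anchored transcription factors BZIP28 and NAC062 rose by 1.14 ± 0.093 and 1.65 ± 0.29. The binding proteins BIP1, BIP2 and BIP3, the classic markers of unfolded protein in this compartment, did not pass the test, at 0.54, 0.37 and 0.30. The member that fell, NAC089 (-0.35), was not called without 8 min replicate 3 or without 0 min replicate 2 or 3.

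Fast stress transcription factors rose in several families, and 0 min replicate 3 was high in many of those named here, as it was for WRKY40. Of 20 ethylene response factors tested, 11 rose and 1 fell (median 2.19), of 14 CBF factors and cold-regulated genes 6 rose (median 0.50), and of 11 zinc finger factors 7 rose and 1 fell (median 2.56). ERF104, a factor released by a stress MAP kinase, had 3239, 3117 and 3104 normalised counts at 8 min, against 38.3, 72.8 and 972 at 0 min (4.48 ± 0.89, adjusted p = 0.000302). CBF2, a regulator of cold acclimation, had 1175, 853 and 885 at 8 min, against 36.3, 73.9 and 402 at 0 min (3.21 ± 0.58, adjusted p = 9.47e-05). ZAT12, a reactive-oxygen-responsive factor, had 1152, 903 and 1588 at 8 min, against 31.3, 47.5 and 221 at 0 min (4.07 ± 0.63, adjusted p = 1.09e-05). Replicate 3 was the highest 0 min library in all 3 genes, and it stayed below every 8 min library. ZAT6 rose by 4.25 ± 0.47, SZF2, a CCCH zinc finger protein, by 2.56 ± 0.46, ERF5 by 3.53 ± 0.77 and CBF3 by 2.67 ± 0.49. RAP2.4, an ethylene response factor with a smaller change and even libraries, had 28892, 28502 and 29078 at 8 min, against 7585, 10871 and 11090.4 at 0 min (1.57 ± 0.11, adjusted p = 3.42e-13). CBF1 passed limma's test (3.84 ± 1.07, adjusted p = 0.00753) at 180.3, 114 and 154 at 8 min against 2.02, 1.06 and 178 at 0 min, but its groups overlapped, it was not called without 0 min replicate 1 or 2, and edgeR gave 1.29 (adjusted p = 0.273) and DESeq2 1.3 (adjusted p = 0.36). The zinc finger gene AT2G28200 went the other way, 528, 501 and 429 at 8 min against 1041, 1346 and 1259.6 at 0 min (-1.32 ± 0.21, adjusted p = 2e-05). Ethylene response factors that rose were 7 without 8 min replicate 3 and 7 without 0 min replicate 2, and CBF list members that rose were 3 without 8 min replicate 3. The part of the 0 min libraries with high WRKY40 in these results was not tested beyond leaving them out, which left 3 risers in the CBF list.

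Of 24 WRKY factors tested, 7 rose and 2 fell (median 0.46). WRKY33, a factor of defence against fungi, had 17315, 12252 and 12597 normalised counts at 8 min, against 1038, 1028 and 4589 at 0 min (3.03 ± 0.51, adjusted p = 3.76e-05). WRKY46, WRKY25 and WRKY11 rose by 2.56 ± 0.54, 0.98 ± 0.23 and 0.62 ± 0.10. The members that fell were WRKY6 (-0.58) and WRKY45 (-0.73), 1 of which was called without 8 min replicate 1 or 3 or without any 1 of the 0 min libraries. Among touch and calcium sensor genes 8 of 22 rose and 1 fell (median 1.05), a member, CML42, that was not called without 8 min replicate 3. TCH3, a calmodulin-like protein induced by touch, had 12837, 9236 and 8713 at 8 min, against 1759.8, 1965 and 4318 at 0 min (2.04 ± 0.38, adjusted p = 0.000124). CML37 rose by 4.51 ± 1.01, the EF-hand protein gene AT3G29000 by 3.65 ± 0.63 and the calcium pump ACA1 by 1.63 ± 0.37. For TCH3 and ACA1, as for WRKY33, 0 min replicate 3 held more than 2-fold the counts of either other 0 min library. Of 12 genes for oxidases, receptor channels and pores known from leaf-to-leaf signalling, 1 rose, the oxidase RBOHD (0.66 ± 0.24, adjusted p = 0.0364), and it was not called without 8 min replicate 1 or 3 or without 0 min replicate 1 or 2. The direction of this list turned with the scaling, since none rose and 2 fell with quantile normalization and none rose and 3 fell with totals made equal.

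Jasmonate genes were high in 1 of the 8 min libraries. Of 32 tested, 8 rose and none fell, with a median of 1.27. AOC2, an enzyme of jasmonate synthesis, had 5862, 6225 and 30734 normalised counts at 8 min, against 4627, 2433 and 3341 at 0 min (1.63 ± 0.47, adjusted p = 0.00932). CYP94B3, which breaks the active hormone down, had 26.8, 33.5 and 351 at 8 min, against 4.03, 1.06 and 5.84 at 0 min (4.07 ± 1.22, adjusted p = 0.0122). In both, 8 min replicate 3 was several times higher than the other 2. JAZ1, a repressor that the hormone induces, had 2219, 1236 and 4598 at 8 min, against 150.3, 54.9 and 616 at 0 min (3.75 ± 0.82, adjusted p = 0.000946), with all 8 min libraries above all 0 min libraries. The count of 8 was 1 without 8 min replicate 3 and 2 without 0 min replicate 2, where AOC2 and CYP94B3 both lost the call, and it was 16 with edgeR, 17 with DESeq2, 5 with quantile normalization, 5 with totals made equal (where 1 fell) and 4 with only the compared groups in the fit. VSP1 and VSP2, classic jasmonate markers, did not pass (2.27 and 2.17).

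Of 29 abscisic acid genes tested, 5 rose (17.2%) and 4 fell (13.8%), shares near those of all tested genes (13.3% and 12.7%), with a median of -0.07, and 7 fell with quantile normalization. ABI1, a phosphatase that damps the hormone's signal, had 7089, 6836 and 8004 normalised counts at 8 min, against 4136, 4512 and 5095 at 0 min (0.68 ± 0.12, adjusted p = 6.02e-05). HAB1, of the same phosphatase family, had 7177, 7143 and 6719 at 8 min, against 9542, 11239 and 10929 at 0 min (-0.59 ± 0.14, adjusted p = 0.00185). The related phosphatases thus moved in opposite directions, each with no overlap between the groups. The transcription factor ABF1 rose by 1.2 ± 0.25, and NCED3, the rate-limiting enzyme of synthesis, by 0.69 ± 0.19, which was not called without 0 min replicate 1. Members that rose were 3 without 8 min replicate 2 and 3 without 0 min replicate 1. Of 12 ethylene genes 1 rose, ACS6, a MAP-kinase-regulated synthase (13925, 11474 and 9666 at 8 min, against 1186, 2138 and 5123 at 0 min, 2.3 ± 0.45, adjusted p = 0.000293), and without 0 min replicate 2 there were 2. In this list 1 gene also fell with quantile normalization or with totals made equal.

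Of 21 salicylate and immune genes tested, 7 rose and none fell (median 0.47). MPK3, a stress-activated MAP kinase, had 17404, 12812 and 12464 normalised counts at 8 min, against 3802, 3831 and 6903 at 0 min (1.60 ± 0.28, adjusted p = 5.17e-05). The regulator CBP60G rose by 2.24 ± 0.44, the kinase MKK9 by 1.78 ± 0.38 and NPR1, the salicylate receptor, by 0.45 ± 0.12, which was not called without 8 min replicate 3. PR1, PR2 and PR5, the late marker genes of this pathway, did not pass, at -0.12, 0.61 and 0.32. Risers in this list numbered 4 without 8 min replicate 1 or 3 and 4 without 0 min replicate 2. Of 6 plant U-box ubiquitin ligases, 3 rose (median 0.84): PUB19 by 1.64 ± 0.33, PUB18 by 1.13 ± 0.26 and CMPG1 by 1.33 ± 0.43, the last not called without 8 min replicate 1 or 2 or without 0 min replicate 1 or 2.

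Among antioxidant genes the highest change was in APX2. Of 33 tested, 13 rose and 1 fell, with a median of 0.14. APX2, a cytosolic ascorbate peroxidase used as a high-light marker, had 159, 122 and 168 normalised counts at 8 min, against 9.08, 13.7 and 7.78 at 0 min (3.77 ± 0.39, adjusted p = 3.22e-09). Its mean in Col local leaves was 11.6 ± 3.33 at 2 min and 14227 ± 606 at 30 min, so the 8 min level stood near the start of its climb. GPX6, a glutathione peroxidase, rose by 0.68 ± 0.13, the chloroplast peroxiredoxin 2CPB by 0.42 ± 0.074 and DHAR3, a dehydroascorbate reductase, by 0.29 ± 0.048. VTC2, the enzyme that commits sugar to vitamin C, showed the largest loss in normalised counts among called genes whose groups did not overlap. It had 137743, 143009 and 133162 at 8 min, against 185678, 247646 and 225098 at 0 min (-0.66 ± 0.21, adjusted p = 0.0166), and was not called without 8 min replicate 3 or without 0 min replicate 2 or 3. Risers in this list were 6 without 0 min replicate 3 and 6 with only the compared groups in the fit. With quantile normalization 6 rose and 6 fell, and with totals made equal 8 rose and 5 fell. Members that fell were 0 or 2 without single libraries other than 8 min replicate 1. Glutathione transferases rose in 3 of 8 (median 0.58): GSTF8 had 55544, 52411 and 50698 at 8 min, against 20202, 18932 and 16679 at 0 min (1.51 ± 0.16, adjusted p = 6.13e-09), and GSTU5 and GSTU19 rose by 1.16 ± 0.22 and 0.59 ± 0.093.

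Of 10 genes of the mitochondrial stress signal, 4 rose, with a median of 0.085 that was -0.032 with totals made equal. OM66, an ATPase of the outer mitochondrial membrane, had 1981, 1209 and 1171 normalised counts at 8 min, against 201, 172 and 687 at 0 min (2.29 ± 0.45, adjusted p = 0.000288). The dicarboxylate carriers DIC1 and DIC2 rose by 2.22 ± 0.58 and 2.62 ± 0.74, and AOX1A, the alternative oxidase, by 0.43 ± 0.13. DIC2 was not called without 0 min replicate 1, by edgeR or by DESeq2, AOX1A was not called without 8 min replicate 3 or 0 min replicate 3, and 1 member fell without 0 min replicate 3. Members that fell were 3 with quantile normalization and 3 with totals made equal, while 1 rose and 1 fell with only the compared groups in the fit. Markers of singlet oxygen and hydrogen peroxide were 4 genes, of which BAP1, an inhibitor of cell death, rose (639.7, 394 and 383 at 8 min, against 14.1, 28.5 and 196 at 0 min, 3.37 ± 0.76, adjusted p = 0.0012). In photoprotection 1 of 8 rose, VDE, the enzyme that makes zeaxanthin (6324, 6899 and 7577 at 8 min, against 5019, 4759 and 4839 at 0 min, 0.51 ± 0.10, adjusted p = 0.0002), and without 0 min replicate 1 there were 2, while 1 of the 8 fell with quantile normalization or with totals made equal. The early light-induced protein genes ELIP1 and ELIP2, picked after their values were seen, did not pass. ELIP1 had 1237, 1161 and 1144 at 8 min, against 1130.5, 855 and 833 at 0 min (0.34). ELIP2 had 326, 331 and 225 at 8 min, against 492, 574 and 278 at 0 min (-0.56), and its groups overlapped.

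**Figure D4:**
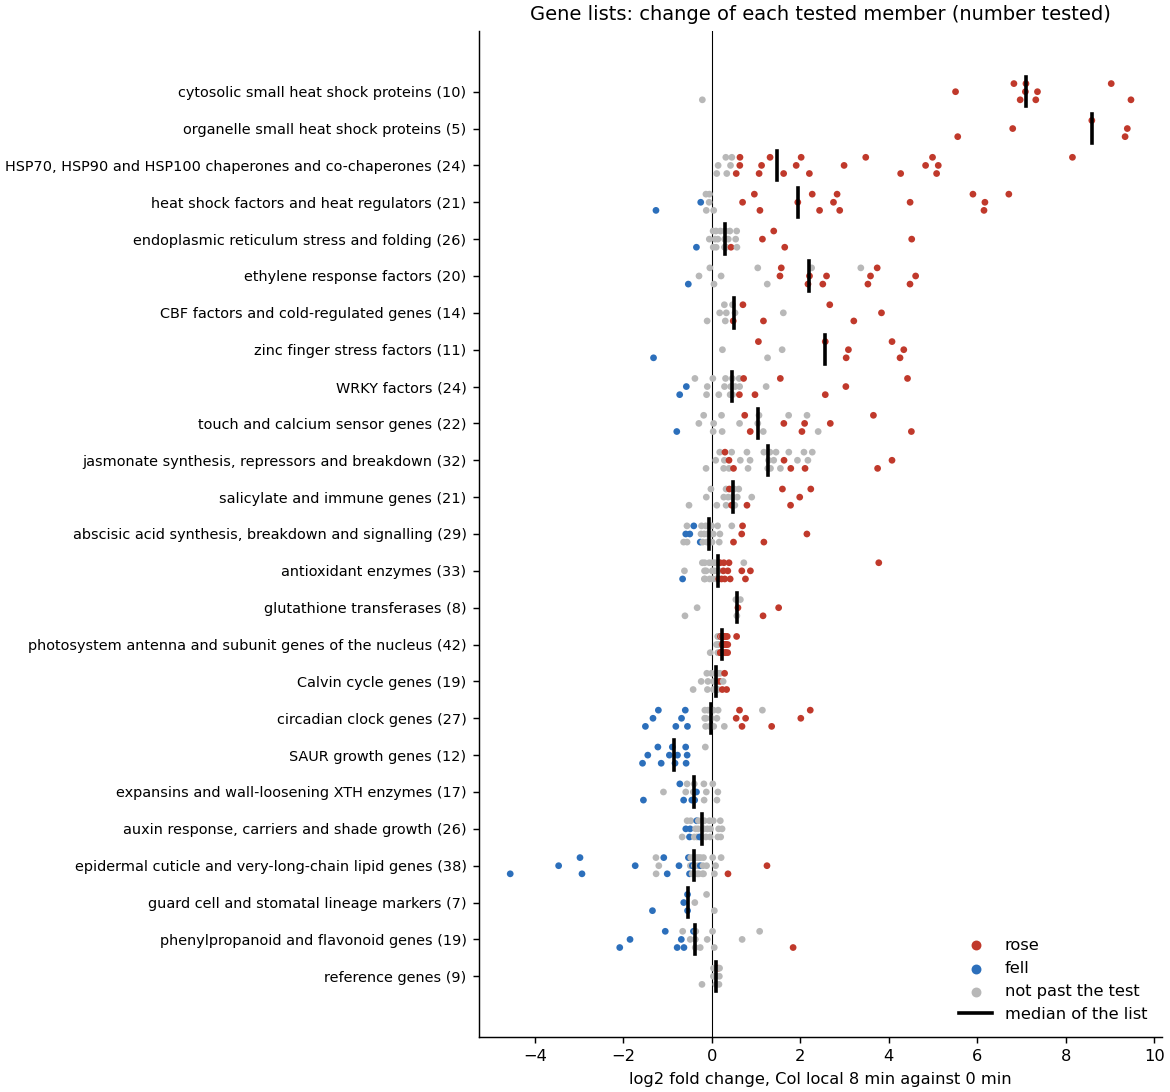
Log2 fold change in Col local leaves (8 min over 0 min, horizontal axis) of each tested member of 25 gene lists (rows, with the number tested); red points rose, blue points fell, grey points did not pass the test (limma, adjusted p under 0.05) and black bars are list medians. The 4 heat lists reach farthest to the right, with medians of 7.09, 8.59, 1.47 and 1.94, while the SAUR, epidermal and guard cell lists lie to the left.

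Nuclear photosynthesis genes rose by small and even amounts. Of 42 tested genes for photosystem antennae and subunits, 28 rose and none fell, with a median of 0.24. LHCA1, an antenna protein of photosystem I, had 632341, 674520.0 and 653818 normalised counts at 8 min, against 540577, 503995 and 486202 at 0 min (0.36 ± 0.063, adjusted p = 6.27e-05). LHCB1.2, a photosystem II antenna gene with near-identical copies, had 634388, 653306 and 680110.0 at 8 min, against 514390.0, 514312 and 515463 at 0 min (0.35 ± 0.066, adjusted p = 0.000171). PSBO1, of the oxygen-evolving complex, had 527160.0, 539253 and 539231 at 8 min, against 461348, 459808 and 438502 at 0 min (0.24 ± 0.057, adjusted p = 0.00198). The spread within a group was a few percent in these genes. They were named by the rule for large gains, which took only called genes whose groups did not overlap. PSBW, PSAO and LHCA3 rose by 0.30 ± 0.056, 0.31 ± 0.059 and 0.28 ± 0.068. Among the genes with the largest gains in counts were also LHCA4 (0.20 ± 0.06), LHCB5 (0.23 ± 0.071) and LHCB3 (0.24 ± 0.084), none of them called without 8 min replicate 2 or without 0 min replicate 3, nor LHCB3 without 8 min replicate 3 or 0 min replicate 2. The count of 28 was 18 without 0 min replicate 3, 17 with totals made equal, 5 with quantile normalization, which set LHCB5 at -0.051, and 2 with only the compared groups in the fit. As a share of all reads the list took 16.03%, 16.4% and 16.1% at 8 min, against 15.0%, 15.1% and 15.3% at 0 min, and at 30 min 11.8% to 12.1%. In local leaves at 2 min it took 16.2% to 17.1%, and 23 members were called higher than at 0 min. In systemic leaves it took 16.7% to 16.9% at 8 min and 15.4% to 16.01% at 0 min, and 8 members rose. The change was shown to differ between the 2 kinds of leaf for 0 members, and for 4.15% of all tested genes.

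Calvin cycle genes rose in 4 of 19 (median 0.10, but -0.056 with quantile normalization and -0.016 with totals made equal). With quantile normalization none rose and 4 fell, with totals made equal 2 rose and 4 fell, and with only the compared groups in the fit 1 rose. CP12-1, a regulator of the cycle, had 46732, 44223 and 47439.5 normalised counts at 8 min, against 35949, 36337 and 37420.5 at 0 min (0.33 ± 0.061, adjusted p = 0.000104). TIM, PGK1 and HCEF1 rose by 0.18 ± 0.051, 0.29 ± 0.084 and 0.24 ± 0.075, and none of the 3 was called without 0 min replicate 3, nor HCEF1 without 8 min replicate 2, which left 1 riser without 0 min replicate 3. Light signalling genes were divided, with 5 up and 6 down of 24 and a median of 0.041 that was -0.073 with quantile normalization and -0.077 with totals made equal. RUP1 and RUP2, repressors of the ultraviolet-B receptor, both fell: RUP2 had 2454, 2081 and 2011 at 8 min, against 3184, 4056 and 4363 at 0 min (-0.82 ± 0.15, adjusted p = 8.62e-05), and RUP1 changed by -0.86 ± 0.15. The blue-light receptor CRY2 and the growth factor PIF4 rose by 0.50 ± 0.10 and 0.47 ± 0.10. Risers numbered 3 without 8 min replicate 1, and genes that fell numbered 3 without 0 min replicate 2.

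Clock genes moved in both directions, 7 up and 7 down of 27, with a median of -0.017. LHY, a morning factor of the clock, had 12582, 12559 and 7505 normalised counts at 8 min, against 23999.6, 34638 and 32343 at 0 min (-1.50 ± 0.31, adjusted p = 0.000487). RVE7, a related MYB factor, had 4140.3, 4772 and 4880.3 at 8 min, against 994, 1327 and 1112 at 0 min (2.01 ± 0.17, adjusted p = 1.26e-11). LHY averaged 13206 ± 3802 at 2 min in local leaves, and in systemic leaves it averaged 10698 ± 3330.0 at 8 min and 30042 ± 5519 at 0 min. RVE7 averaged 1281 ± 139 at 8 min and 1069 ± 178 at 0 min in systemic leaves, and its change differed between the leaves (leaf by time 1.74 ± 0.24, adjusted p = 2.13e-06), while that of LHY was not shown to (0.025 ± 0.44, adjusted p = 0.99). PRR7, which acts later in the morning, rose by 0.68 ± 0.12, and RVE8 and LNK2, an activator of evening genes and its partner, fell (-0.81 ± 0.17 and -0.68 ± 0.16). Clock genes that rose numbered 4 without 8 min replicate 3, and those that fell 11 with totals made equal. The hour at which each library was taken is not given in the sources used here, so time of day and time in high light cannot be told apart in genes that moved alike in both leaves. Among 18 genes induced by darkness and low sugar, 3 rose (16.7%) and 1 fell (5.56%), against 13.3% and 12.7% of all tested genes. The gene that fell was BMY3 of the beta-amylase family (6198, 6648 and 4046 at 8 min, against 13324, 20995 and 17025 at 0 min, -1.61 ± 0.34, adjusted p = 0.000666), while DIN3 rose by 0.39 ± 0.12, and without 0 min replicate 3 there was 1 riser.

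SAUR genes fell. Of 12 SAUR genes, small auxin-induced genes that loosen the wall through proton pumping, 11 fell and none rose, with a median of -0.86. SAUR14 had 4469.9, 4820.0 and 3820.0 normalised counts at 8 min, against 7821, 7979 and 7432 at 0 min (-0.83 ± 0.11, adjusted p = 3.29e-07). SAUR21 had 890.1, 988 and 624 at 8 min, against 1745, 2075 and 1639 at 0 min (-1.14 ± 0.16, adjusted p = 1.67e-06), and SAUR24 and SAUR10 changed by -0.96 ± 0.14 and -1.45 ± 0.24. The groups did not overlap for the 11 genes that fell, and the member that did not pass was SAUR9 (-0.15). SAUR21 and SAUR24 belong to a set of near-identical copies, so reads may be shared between them. Over all 53 tested genes annotated as SAUR-like, 31 fell and 2 rose, of which 1 did without 8 min replicate 1 or 2 or 0 min replicate 1 or 2. SAUR21 averaged 1819 ± 227, 1805 ± 279, 834 ± 189 and 424 ± 87.0 in local leaves at 0, 2, 8 and 30 min. In the systemic leaves at 8 min 1 of the 12 fell, and for 8 of them the local change was the lower one (leaf by time), SAUR21 among them (-1.04 ± 0.23, adjusted p = 0.00298).

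Of 26 tested genes of auxin response and transport, 5 fell and none rose (median -0.23). IAA3, a repressor that auxin induces, had 3093, 3245 and 2334 normalised counts at 8 min, against 4269, 5040.1 and 3698 at 0 min (-0.59 ± 0.11, adjusted p = 0.000243), and IAA1 and the efflux carrier PIN3 changed by -0.50 ± 0.12 and -0.49 ± 0.10. ARGOS, an auxin-induced gene of organ size, was among the 12 lowest of the called genes that met the rule for naming, at 10.3, 13.6 and 3.34 at 8 min, against 46.4, 60.2 and 51.6 at 0 min (-2.58 ± 0.49, adjusted p = 0.000174). Wall-loosening expansins and XTH enzymes fell in 6 of 17 (median -0.40), led by XTH16 with 84.5, 76.4 and 60.1 at 8 min, against 228, 222 and 196 at 0 min (-1.55 ± 0.27, adjusted p = 5.67e-05). EXPA1 and XTH8 changed by -0.39 ± 0.11 and -0.64 ± 0.19, and neither was called without 8 min replicate 3, nor EXPA1 without 0 min replicate 2. The 5 auxin genes were 3 without 8 min replicate 3 and 3 without 0 min replicate 2, and the 6 wall genes were 1 and 3 without these libraries.

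Epidermal genes held the lowest changes. Of 38 tested genes of the cuticle and of very-long-chain lipids, 12 fell and 2 rose, with a median of -0.40. PDF1, an epidermis-specific cell wall protein, had 17.5, 13.6 and 7.80 normalised counts at 8 min, against 365, 204 and 412 at 0 min (-4.56 ± 0.76, adjusted p = 3.48e-05). ADS1, a fatty acid desaturase, had 19.6, 25.1 and 20.0 at 8 min, against 272, 159 and 344 at 0 min (-3.46 ± 0.72, adjusted p = 0.000544). LTL1, a lipase of the GDSL family, had 41.2, 55.5 and 31.2 at 8 min, against 356, 229 and 457 at 0 min (-2.98 ± 0.47, adjusted p = 1.61e-05). In all 3 genes every 8 min library lay more than 4-fold below the lowest 0 min library. The desaturase-family gene AT1G06360 changed by -2.93 ± 0.40. Outside the list but among the 12 lowest, the GDSL-like lipase gene AT5G45670 changed by -2.59 ± 0.50, the glycine-rich protein AT4G29020 by -3.28 ± 0.43 and the lipid transfer protein LTP6 by -2.25 ± 0.47. PDF1 averaged 327 ± 109, 16.5 ± 4.62, 13.0 ± 4.89 and 11.5 ± 2.97 in local leaves at 0, 2, 8 and 30 min, so the low level was there at 2 min. In systemic leaves it averaged 299 ± 45.7 at 8 min and 239 ± 223 at 0 min, and in myb30 local leaves 22.8 ± 2.56 at 8 min and 108 ± 146 at 0 min. Other epidermal markers did not pass: the regulators ATML1 and PDF2 were at 0.059 and 0.086, and the cuticle genes CER5 and FDH at -0.21 and -0.32. The 2 that rose were KCS17 (1.25) and MYB96 (0.37, not called without 8 min replicate 1 or 2 or 0 min replicate 1), and the 12 that fell were 7 without 8 min replicate 1, 4 without 8 min replicate 3 and 4 without 0 min replicate 2. In bulk leaf RNA, fewer cells of a type and less RNA per cell cannot be told apart.

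Guard cell and stomatal lineage markers fell in 4 of 7 tested, with none rising and a median of -0.55. The 9 listed markers summed to 3402 to 4018 normalised counts at 8 min and to 5330.4 to 6072 at 0 min, and none of them was at 0 in all libraries. FAMA, which ends guard cell division, had 725, 799.7 and 659 at 8 min, against 1078, 1064 and 1045 at 0 min (-0.55 ± 0.082, adjusted p = 5.7e-06). The channel KAT1 and the factor MYB60, both of mature guard cells, changed by -0.63 ± 0.11 and -0.55 ± 0.12, and the lineage receptor TMM by -1.34 ± 0.30. SLAC1 and GORK, also guard cell channels, were at 0.057 and -0.12 and did not pass. Vascular markers rose in 2 of 7, SWEET12 (1.36) and SUC2 (0.29), which were 0 without 8 min replicate 3 or 0 min replicate 2 and 1 without 8 min replicate 2 or 0 min replicate 1 or 3, and their sum was 19836 to 23377 at 8 min and 16582 to 22245 at 0 min. No marker of dividing tissue passed, with 4 genes between -0.11 and 0.22, and 1 of them did without 0 min replicate 2.

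Of 19 phenylpropanoid and flavonoid genes tested, 7 fell and 1 rose (median -0.37). MYB111, an activator of flavonol synthesis, had 21.6, 16.7 and 25.6 normalised counts at 8 min, against 51.4, 114 and 133 at 0 min (-2.08 ± 0.55, adjusted p = 0.00505). C4H, an early enzyme of the pathway, had 17416, 19341 and 14539.5 at 8 min, against 27582, 26553 and 24765 at 0 min (-0.63 ± 0.13, adjusted p = 0.000523). The member that rose was MYB7, a MYB factor of the repressor type, with 828, 839 and 1105 at 8 min, against 219, 295 and 259 at 0 min (1.84 ± 0.19, adjusted p = 1.5e-09). The ligase 4CL3 changed by -1.05 ± 0.28 and was not called without 8 min replicate 3, and genes that fell then numbered 2. Of 18 glucosinolate genes, MYB51, an activator of indole glucosinolates, rose (1.14 ± 0.26) and MAM3 fell (-1.39 ± 0.48), and MAM3 was not called without 8 min replicate 1 or 0 min replicate 1 or 2, while risers were 3 without 0 min replicate 1.

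Transcripts of the mitochondrial genome rose almost as a block. Of 42 tested, 34 rose and none fell, with changes from 0.32 to 2.34 and a median of 0.98. Of 86 chloroplast-encoded transcripts 8 rose and 1 fell (median 0.13), and single libraries moved the risers to between 3 and 5 when 8 min replicate 2 or 3 or any 0 min library was left out, and the 1 that fell became 2 without 8 min replicate 1 or 2. With quantile normalization 5 rose and 2 fell, and with totals made equal the direction of the chloroplast list turned, 2 up and 5 down. At 30 min the medians were 1.90 and 0.60, and in systemic leaves at 8 min 0.10 and 0.066. Reads from organelle genes depend on how far messenger RNA was selected by its tail, which the sources used here do not give, and the part of that step in these values was not tested.

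More ribosomal genes fell than rose, while splicing factors were led by a few risers. Of 260 tested genes annotated as ribosomal proteins 53 fell and 20 rose (median -0.12), and of 234 pentatricopeptide repeat proteins, which process organelle RNA, 43 fell and 4 rose (median -0.13). Of all tested genes 12.7% fell and 13.3% rose, the shares beside which the counts of this paragraph stand. Ribosomal genes that fell were 81 without 8 min replicate 1, 15 without 8 min replicate 3, 35 without 0 min replicate 1 and 23 without 0 min replicate 2, and those that rose were 11 without 8 min replicate 1 or 0 min replicate 3 and 13 without 0 min replicate 2. The ribosomal counts moved with the fit as well: 120 fell and 5 rose with quantile normalization, 141 fell and 2 rose with totals made equal, and 15 fell and 4 rose with only the compared groups in the fit. Pentatricopeptide genes that fell were 91 with totals made equal, 19 with only the compared groups in the fit and 28 without 0 min replicate 2, and those that rose were 7 and 2 without 0 min replicate 1 and 3. Of 10 nucleolar assembly factors 4 fell (median -0.28), PRH75, NOP56, FIB2 and AT3G05060, but none did without 8 min replicate 3 or 0 min replicate 2, and 1 without 0 min replicate 1. Nucleolar factors that fell were 7 with quantile normalization, 8 with totals made equal and none with only the compared groups in the fit. SR45A, a splicing factor induced by heat and light, had 33735, 37496 and 37751 normalised counts at 8 min, against 7171, 9619 and 7953 at 0 min (2.15 ± 0.20, adjusted p = 2.08e-10), and SR30 had 10218, 10362 and 9991 at 8 min, against 7105, 7033 and 7125 at 0 min (0.52 ± 0.084, adjusted p = 1.78e-05). Of the 20 SR factors 4 rose, 2 without 8 min replicate 3 or 0 min replicate 1, and 2 fell, SCL30A (-0.34) and RSZ22A (-0.26), the second not called without 8 min replicate 3. Of SR factors 3 rose and 4 fell with quantile normalization, 2 rose and 5 fell with totals made equal, and 2 rose and 1 fell with only the compared groups in the fit. Long non-coding RNA genes fell in 66 of 441 tested and rose in 27, but in 34, 43 and 32 without 8 min replicate 3, 0 min replicate 2 and 0 min replicate 3, and without 0 min replicate 2, 17 rose. Those that fell were 34 with only the compared groups in the fit.

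Of 9 genes often used as references, UBC9 rose by 0.15 ± 0.052 and none fell, and UBC9 was called in the fit without 0 min replicate 1 but not without any other of the 6 libraries. Without 8 min replicate 2 or 0 min replicate 3, 1 fell. None rose and 1 fell with quantile normalization or with totals made equal, and none rose with only the compared groups in the fit. ACT2 was at -0.22, UBQ10 at 0.18 and PP2AA3 at 0.16. Among called genes whose groups did not overlap, the largest losses in normalised counts, after VTC2, were in LNK2 (71946, 71691 and 59546 at 8 min, against 93243, 112369 and 121683 at 0 min, -0.68 ± 0.16, adjusted p = 0.00174) and AT1G55960, a lipid transport family gene (-0.84 ± 0.21). GBSS1, the starch synthase that makes amylose, had 46192, 51599 and 42444 at 8 min, against 72694, 93607 and 68030.4 at 0 min (-0.73 ± 0.24, adjusted p = 0.0245), and the vacuolar water channel DELTA-TIP had 31591, 39531 and 21124 at 8 min, against 48759.7, 60363 and 52662 at 0 min (-0.85 ± 0.20, adjusted p = 0.00199). HOG1, the hydrolase of S-adenosyl-homocysteine, changed by -0.38 ± 0.10, AT1G01320 by -0.36 ± 0.081, AT2G10940 by -0.50 ± 0.15 and the transporter-family gene AT3G21670 by -0.64 ± 0.16. Without 8 min replicate 3, AT1G55960, GBSS1, HOG1 and AT2G10940 were not called, nor were GBSS1 and AT2G10940 without 0 min replicate 2, GBSS1 without 8 min replicate 1 and AT2G10940 without 0 min replicate 3. The 12 lowest fold changes also took in SRG3, a senescence-related gene (-2.19 ± 0.59, not called without 0 min replicate 2), the RING gene AT1G49200 (-2.25 ± 0.41) and the Dof factor AT1G26790 (-2.01 ± 0.56, not called without 8 min replicate 3).

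In other lists too the counts moved by more than 1.5 times with the scaling or the fit. Auxin genes that fell were 9 and wall genes that fell 12 with totals made equal, and wall genes that fell were 3 with only the compared groups in the fit. Phenylpropanoid genes that fell were 11 with quantile normalization or with totals made equal. Risers among the genes of darkness and low sugar were 1 with quantile normalization and none with totals made equal, those of light signalling 2 with totals made equal and those of the salicylate list 4 with totals made equal. Vascular markers that rose were 1 with quantile normalization or with totals made equal and none with only the compared groups in the fit, and 1 epidermal gene rose under each of the 3 settings. Of DnaJ-domain genes 12 rose and 23 fell with totals made equal, 14 rose and 15 fell with quantile normalization, and 10 rose and 4 fell with only the compared groups in the fit. Ethylene response factors that rose were 6, touch genes that rose 5, heat shock factors that fell 0 and SAUR-like genes that rose 1 with only the compared groups in the fit.

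The response of the lit leaf differed from that of the systemic leaf in 811 genes (4.15% of those tested), by the test of the difference between the 2 changes. For 517 genes (2.64%) the change was higher in local leaves, and 405 of these rose there. For 294 genes (1.50%) it was lower in local leaves, and 217 of these fell there. Without Col systemic 0 min replicate 3, whose genotype was in doubt, 718 genes differed, and without the 3 libraries with high WRKY40 at 0 min (Col local replicate 3, Col systemic replicate 1 and myb30 systemic replicate 3), 487 did. The highest differences were in heat genes: AT1G71000 averaged 4481 ± 1645 and 2.39 ± 1.23 normalised counts in local leaves at 8 and 0 min, against 0.642 ± 0.556 and 6.83 ± 7.55 in systemic leaves (difference 11.97 ± 1.1, adjusted p = 2.56e-10). At such low counts in systemic leaves the size of the difference depends on the pseudocount. HSP17.6A averaged 27.0 ± 25.1 in systemic leaves at 8 min and 139 ± 77.2 at 0 min, a fall of its own (-2.54 ± 0.75, adjusted p = 0.0132), so that its difference was 11.57 ± 1.05 (adjusted p = 2.05e-10). HSP101 likewise averaged 1169.7 ± 337 and 3516 ± 1219 in systemic leaves at 8 and 0 min (-1.58 ± 0.37, adjusted p = 0.00255). Of the 24 HSP70, HSP90 and HSP100 genes 13 fell in systemic leaves and none rose, where 11.1% of all genes rose and 11.4% fell.

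**Figure D5:**
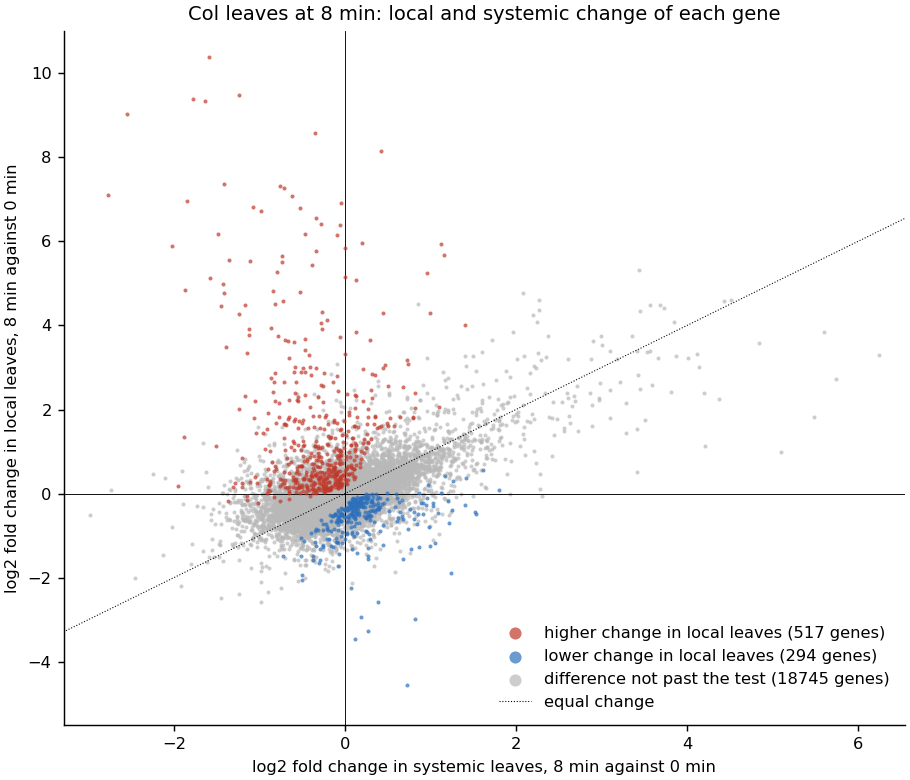
Log2 fold change (8 min over 0 min) of each tested gene in Col local leaves (vertical axis) against that in Col systemic leaves (horizontal axis); red and blue points are genes whose change was higher (517) or lower (294) in local leaves by the leaf by time test (limma, adjusted p under 0.05), grey points did not pass it, and the dotted line marks equal change. Heat genes lie above 4 on the vertical axis near or left of 0 on the horizontal axis, while a band of grey points with changes above 2 in both leaves follows the dotted line.

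Many fast stress genes moved in both leaves. ERF104 averaged 3153 ± 74.4 and 361 ± 529 in local leaves at 8 and 0 min, against 1634 ± 575 and 156 ± 140.0 in systemic leaves, and its difference did not pass (0.80 ± 1.26, adjusted p = 0.833). CBF2 averaged 971 ± 178 and 171 ± 201 in local leaves, against 849.6 ± 268 and 99.2 ± 57.5 in systemic leaves (0.026 ± 0.82, adjusted p = 0.994). By the leaf by time test, 1 member of the ethylene response factor list was higher in local leaves, RAP2.4 (1.19 ± 0.16, adjusted p = 1.85e-06), and 2 of the WRKY list were lower, WRKY6 (-0.83 ± 0.25, adjusted p = 0.0485) and WRKY26 (-1.63 ± 0.44, adjusted p = 0.0234). None of the tested members of the CBF, zinc finger, touch or jasmonate lists differed between the leaves, where 4.15% of all tested genes did. A p that misses the threshold does not show that they moved alike. In systemic leaves 4 of 14 CBF list genes, 6 of 11 zinc finger genes, 3 of 22 touch genes and 6 of 32 jasmonate genes rose. There 1 zinc finger gene fell, and of all tested genes 11.1% rose and 11.4% fell. Of the genes that rose in local leaves 1119 also rose in systemic leaves, 43.0% of the local and 51.8% of the systemic risers, and 96 fell there. Of those that fell in local leaves 922 also fell in systemic leaves, 37.2% of the local and 41.5% of the systemic list, and 20 rose there. Local and systemic libraries share no reads, but same-numbered libraries at 8 min deviated together (r = 0.53, 0.32 and 0.59 across genes), so the leaves are not shown to be independent samples. At 0 min the values were lower (r = 0.08, 0.31 and 0.14). The leaf by time test did not pair same-numbered libraries, and with the replicate block 876 genes differed in place of 811.

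In myb30 local leaves the same comparison called 1853 genes higher (9.48%) and 1808 lower (9.25%), with no library shared with Col. Same-numbered Col and myb30 local libraries had correlated deviations of r = 0.37, 0.21 and 0.20 at 0 min and of 0.17, 0.15 and -0.26 at 8 min. The genotypes are thus not shown to be independent samples. MYB30 itself was at 564 ± 55.2 in Col local leaves at 8 min and 679 ± 121 at 0 min, and at 391 ± 66.7 and 447 ± 53.9 in myb30 local leaves, so its transcript was present in the libraries labelled myb30 and its level does not by itself check the labels. Of the Col risers 1425 also rose in myb30, 54.7% of the Col and 76.9% of the myb30 list, and of the genes that fell 1408 also fell, 56.9% of the Col and 77.9% of the myb30 list. No gene was called in opposite directions. The difference between the genotypes' changes passed for 0 of 19556 genes with limma, where 646 (3.3%) had an unadjusted p under 0.05, and for 0 with edgeR and 0 with DESeq2, where 621 and 686 did. A difference that misses the threshold does not show that the genotypes responded alike. The smallest p belonged to HDA08, a histone deacetylase, which rose by 1.61 ± 0.10 in Col and 0.99 ± 0.10 in myb30 (difference 0.62 ± 0.14, adjusted p = 1). AT2G27630, a ubiquitin hydrolase-related gene, and PnsB5, of the chloroplast NDH complex, came next, with differences of -2.33 ± 0.58 and 0.24 ± 0.061. PDF1 was at -4.56 ± 0.76 in Col and -1.25 ± 0.76 in myb30, a difference of -3.31 ± 1.08 (adjusted p = 1). Of the 42 photosystem genes, 28 rose in Col and 0 in myb30, and the difference passed for 0.

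Genes with the largest rises often had no intron in the annotation. Among protein-coding genes with an annotation, 43.4% of 219 that rose at least 4-fold and 48.5% of 68 that rose at least 16-fold had a single exon, against 14.6% of 18836 tested. Of 196 that fell at least 2-fold 41.8% had a single exon, and of all 2520 that rose 13.8%. The median spliced length was 1302 bases in genes that rose at least 4-fold, 1366 in genes that fell at least 2-fold and 1753 over all tested. For a given number of molecules a longer transcript gives more reads, so length also bears on which genes could pass the test.

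Promoter windows ran from 250 bases before to 50 bases after the start, and matches were counted on both strands. The 3-unit heat shock element, GAANNTTC followed by NNGAA and marked in the sequences above, was in 13.2% of the promoters of genes that rose at least 16-fold (9 of 68), in 7.02% of those that rose at least 4-fold and in 1.56% of all that rose, against 0.242% of those that fell and 0.561% of all tested. The shorter element GAANNTTC, which every 3-unit match contains, was in 33.8%, 30.3% and 14.4%, against 9.66% of those that fell and 11.6% of all tested. AT1G71000 held 2 overlapping 3-unit matches and HSP17.4 held 2 apart, while HSP17.6A, AT1G59860 and AT1G07400 held neither form, which says only that these letters are not in this window. The evening element AAATATCT was in 11.4% of all promoters of genes that rose, against 3.68% of those that fell and 5.91% of all tested, and in 10.3% of genes that rose at least 16-fold. The rapid stress response element CGCGTT was in 5.51%, against 2.06% and 3.77%, in 8.77% of genes that rose at least 4-fold and in 4.41% of those that rose at least 16-fold (3 of 68). The abscisic acid element, ACGTGT or ACGTGG, was in 41.2% of genes that rose at least 16-fold and 23.5% of all that rose, against 19.5% of those that fell and 20.1% of all tested. The W-box, TTGACC or TTGACT, was in 34.0%, 29.8% and 32.3% of genes that rose, that fell and of all tested, and in 19.1% of genes that rose at least 16-fold (13 of 68). These shares are descriptions of letters in the windows, not of binding.

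Neighbours of the strongest risers are given as a description, since reads of adjoining genes can mix. Of tested genes within 1000 bases downstream of a gene that rose at least 16-fold, 6 of 16 on the same strand (37.5%) and 9 of 21 on the opposite strand (42.9%) rose, and of those upstream 8 of 19 on the same strand (42.1%) and 8 of 16 on the opposite strand (50%) rose, against 13.3% of all genes. These counts hold neighbours that themselves rose at least 16-fold: AT1G59860 with AT1G59865, AT3G16040 with PDX1.2, and HSP17.6A with HSP17.6II. Each such pair was counted from both sides, and its rise was set by the selection, so the share of all genes is no fair comparison for it. AT3G16040 averaged 159 at 8 min and 0.352 at 0 min, too few reads at 0 min for a fold, and it overlaps by 3 bases, on the opposite strand, PDX1.2, a vitamin B6 protein, which rose by 5.52 ± 0.28 (13152 at 8 min and 290.1 at 0 min). AT1G30060 averaged 133 at 8 min and 0.648 at 0 min, again too few for a fold, and lies 604 bases after AT1G30070 on the same strand, which rose by 3.93 ± 0.18. Whether the authors' counting used strand is not given in the sources used here, so reads of such pairs cannot be told apart, and the part of reads running on from a neighbour was not tested.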

How the data were processed

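RNA from leaves of Arabidopsis thaliana was sequenced in 48 libraries, 3 in each of 16 groups taken from the sample titles, with which the time field conflicts for the 6 Col libraries titled 30 min. The deposited values are the authors' normalised counts, a signal per gene in which each library's counts are divided by a size factor. Per the submitters' processing notes, the tools were cutadapt 1.18, FastQC 0.11.7, STAR 2.4.0.1 and DESeq2 1.20.0 on TAIR10. Neither the counting tool nor its use of strand is named there or in the labels. Division by the smallest step of each library gave whole reads for 100% of 1084756 values above 0 (tolerance 1e-06).

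Of 32833 genes, 19556 had a mean of at least 10. One fit of 16 group means to log2(value + 1) of all 48 libraries was made with limma 3.58.1 (empirical Bayes with trend, two-sided, Benjamini-Hochberg adjusted over all genes, threshold 0.05) in R 4.3.3. Leaf by time and genotype by time were contrasts of that fit. The recovered reads were tested with edgeR 4.0.16 (quasi-likelihood) and DESeq2 1.42.0 as alternatives. All 3 were tested on simulated data, in which no library stood apart from its group. There limma recovered 16% of 1.25-fold, 46% of 1.5-fold, 78% of 2-fold and 94% of 4-fold changes, so many small changes were missed. Figures and joins used Python 3.11.15, pandas 2.3.3, numpy 2.4.6 and matplotlib 3.10.9.

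The rule for genes to name took the 12 largest rises and 12 largest falls that were called, with groups not overlapping and the higher group averaging 50 or more, the 10 largest gains and 10 largest losses of mean normalised count that were called without overlap, up to 4 called members of each list with the largest moderated statistic together with the members that went against their list, the 6 highest and 6 lowest leaf by time differences, and the 3 smallest genotype by time p-values. Other genes named in the text were chosen after their values were seen. The 39 gene lists (712 genes) and 7 lists from annotation, like the comparison itself, were chosen with earlier results of these data known. Same-numbered libraries of the 2 groups had correlated deviations of r = -0.13, 0.34 and 0.079, so the numbers were not taken to pair them. Gene names and promoters are from RefSeq TAIR10.1, which matched 32548 genes.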

Additional observations from a re-analysis of the deposited data

Results flagged for a closer look

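The change from 0 to 8 min differed between local and systemic Col leaves, by the leaf by time test of the limma fit, for 811 genes. The 6 highest of these differences among genes with a mean of at least 50 (log2, local minus systemic) were in AT1G71000 (11.97), HSP17.6A (11.57), HSP23.6 (11.17), HSP22.0 (10.98), AT1G53540 (10.71) and AT1G07400 (9.87). The 6 lowest were in PDF1 (-5.28), LTL1 (-3.80), ADS1 (-3.58), AT4G29020 (-3.55), AT1G06360 (-3.12) and AT5G45670 (-2.97). ADS1 kept its call in only 12 of the 26 alternatives run. PDF1, LTL1, AT4G29020 and AT1G06360 kept theirs in 25 and AT5G45670 in 24. Over the alternatives run, the difference ranged from 9.35 to 14.32 in AT1G71000 and from 7.80 to 14.33 in HSP22.0, both with systemic means under 7 normalised counts at each time, and from 10.86 to 12.27 in HSP17.6A and from 8.91 to 10.52 in AT1G07400. A pseudocount of 8 gave the lowest value in AT1G71000 and in HSP22.0.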

How the results depend on the processing

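The count of 5079 genes called in Col local leaves became 2910 with only the compared groups in the fit, 3056 without 8 min replicate 3, and 2066 to 4843 over all fits that left out a library or a replicate number. It was 4969 to 6238 under the other planned settings (2 pseudocounts, no filter, quantile normalization, totals made equal, edgeR, DESeq2). With the replicate block it was 5124. After seeing the data, libraries were also left out for high WRKY40 at 0 min (3914) or because their genotype was in doubt (5375). The share of calls that were higher was 51.3% as reported, 35.5% with quantile normalization and 22.3% with totals made equal. The leaf by time count of 811 became 1305 with totals made equal (375 higher, 930 lower; median of all genes moved by -0.13), 439 with only the compared groups and 487 without the libraries with high WRKY40, was 307 to 946 over the leave-outs and 876 with the replicate block. Genotype by time gave 0 genes under every setting run. Of the named genes' values under the alternatives, 3249 kept their direction and call, 300 lost the call and 1 reversed, LHCB5 with quantile normalization (-0.051). The cause was not tested. Small changes, such as those of the photosystem and ribosomal genes, rest on the scaling, on the groups taken into the fit and on single libraries. Among single libraries, only 0 min replicate 3 moved the photosystem risers by more than 1.5 times, from 28 to 18. Each of the 6 libraries but 8 min replicate 2 moved the ribosomal risers or the ribosomal genes that fell by that much.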
